A study of Mus musculus with 32 samples.

Results

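*Pnmt* and 6 other genes of catecholamine metabolism were followed through the amygdala and hippocampus of mice lacking 1 copy of *Kmt2a*, all of *Kdm5c*, or both. The 7 genes, of 53715 in the tables, were chosen by function (*Th*, *Ddc*, *Dbh*, *Slc18a2*, *Maoa* and *Maob*) together with *Pnmt*, which was picked from its high amygdala counts in the *Kdm5c* mutants. *Pnmt* RNA was near the counting floor in WT amygdala, at 5.02 ± 1.46 normalised counts (SD, n = 4), and stood at 64.0 ± 25.5 in *Kdm5c*-KO and 91.8 ± 16.4 in DM. None of the other 6 members passed the test in any comparison of genotypes. Between regions 4 to 6 of them did, beside 21.2% to 29.6% of all genes, with *Th* and *Ddc* lower in the hippocampus in every genotype.

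Catecholamines are made from tyrosine in a short chain of reactions. Tyrosine hydroxylase (*Th*) makes L-DOPA, aromatic L-amino acid decarboxylase (*Ddc*) turns it into dopamine, dopamine beta-hydroxylase (*Dbh*) makes noradrenaline inside vesicles, and phenylethanolamine N-methyltransferase (*Pnmt*) methylates noradrenaline to adrenaline with S-adenosylmethionine as the donor. The vesicular monoamine transporter VMAT2 (*Slc18a2*) loads the amines into vesicles, and the monoamine oxidases A and B (*Maoa*, *Maob*) break them down. In the brain most of these amines reach the amygdala and hippocampus through axons whose cell bodies lie in the midbrain and brainstem. *Pnmt* is best known from the adrenal medulla and from small groups of brainstem neurons.

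The libraries came from 16 adult male F1 mice on a mixed 129xB6 background, 4 each of WT, *Kmt2a*-HET (*Kmt2a*+/-), *Kdm5c*-KO (*Kdm5c*-/y) and DM, which carry both mutations. KMT2A adds and KDM5C removes methyl groups on lysine 4 of histone H3, and the design asks whether loss of the one offsets loss of the other. The fathers were *Kmt2a* heterozygotes on 129S1/SvImJ and the mothers *Kdm5c* heterozygotes on C57BL/6J, and the mutations were inherited rather than induced. Each mouse gave an amygdala and a hippocampus library, 32 in all. Values below are counts divided by DESeq2 size factors estimated over the 32 libraries, called normalised counts. Differences between genotypes come from the DESeq2 Wald test on the 16 libraries of a region. A gene was called at an adjusted p (Benjamini-Hochberg, over all genes of the fit) under 0.1, the threshold that the study set first. For *Kmt2a*-HET the study also used a relaxed cut-off on the unadjusted p, which was not used here.

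Gene counts summed to between 19215489 and 27798976 per library. Summed hippocampal markers separated the regions, at 1293 to 4156 in the amygdala libraries against 7775 to 27761, while summed amygdala markers overlapped (3745 to 6737 against 1972 to 3840). All 6 hippocampal markers were called higher in the hippocampus in all 4 genotypes, and of 24 tests on the 6 amygdala markers 13 were lower and 4 higher there. The labels could be checked only in part. Counts over the whole *Kdm5c* gene were lower in *Kdm5c*-KO than in WT hippocampus (log2 difference -0.34 ± 0.09 SE, adjusted p = 0.030) and differed by -0.32 ± 0.12 in the amygdala (adjusted p = 0.47). In DM, which carry the same *Kdm5c* mutation, neither difference was called (-0.21 ± 0.09 in the hippocampus, adjusted p = 0.49, and -0.34 ± 0.12 in the amygdala, adjusted p = 0.33). Those over *Kmt2a* checked nothing, since the deletion covers a few exons of a long gene. Marker sums of other cell types varied between libraries. Summed striatal markers, some of which amygdala neurons also express, ran from 6572 to 50677 over the amygdala libraries, and summed choroid plexus markers from 777 to 40727 there. In the hippocampus the choroid plexus sums ran from 913 to 104171, and the striatal sums from 2092 to 3813 except for 13181 in *Kdm5c*-KO replicate 1. In bulk tissue, fewer cells of a type and less RNA per cell cannot be told apart.

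*Pnmt* lies on chromosome 11 (98386450-98388181, plus strand, mm10) and overlaps no other annotated gene. In WT amygdala the 4 libraries held 4.74, 6.61, 3.14 and 5.56 normalised counts. The *Kmt2a*-HET libraries held 9.17, 3.29, 8.59 and 10.8, a range that overlaps that of WT. In *Kdm5c*-KO the values were 92.4, 71.1, 31.1 and 61.5, all above the highest WT or *Kmt2a*-HET library. The DM values were 105, 105, 85.5 and 71.5, also above every WT and *Kmt2a*-HET library, and overlapping those of *Kdm5c*-KO. On the log2 scale the difference from WT was 3.66 ± 0.44 (SE) in *Kdm5c*-KO, 4.19 ± 0.44 in DM and 0.68 ± 0.50 in *Kmt2a*-HET. The DM level exceeded that of *Kdm5c*-KO by 0.53 ± 0.32 and that of *Kmt2a*-HET by 3.51 ± 0.39. These amygdala values chose the gene, so they are a description and carry no test. Without the 4 libraries numbered 1, which stood apart in other genes, the differences from WT were 3.41 in *Kdm5c*-KO and 4.10 in DM.

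**Figure D1:**
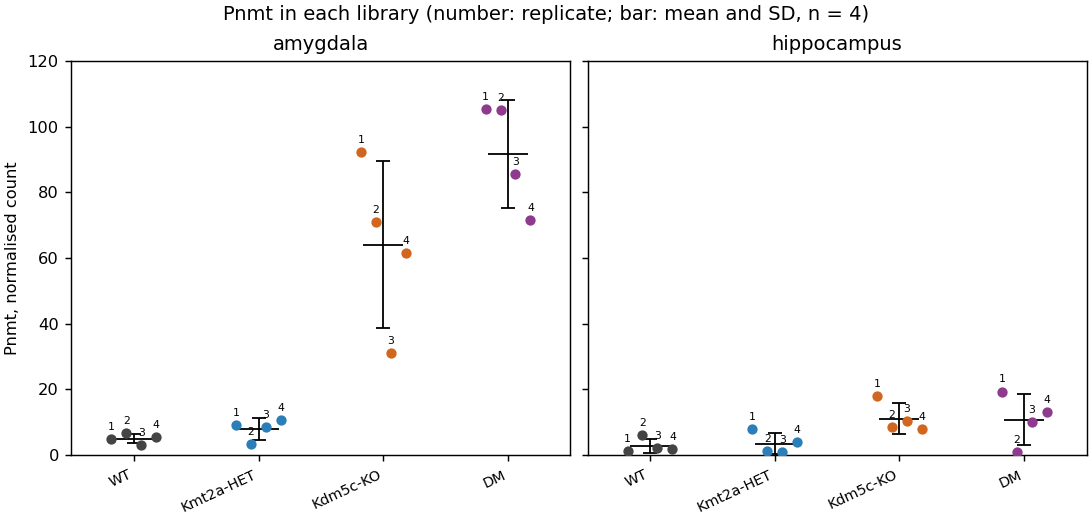
Normalised counts of *Pnmt* in each library (points, numbered by replicate) with the mean and SD of each genotype (bars, n = 4), amygdala on the left and hippocampus on the right, on 1 linear axis. In the amygdala the lowest *Kdm5c*-KO library (31.1) is above the highest WT (6.61) and *Kmt2a*-HET (10.8) libraries, and in the hippocampus DM replicate 2 (0.958) lies with the WT libraries.

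The hippocampal values of *Pnmt* come from the same mice and were also known when the genes were chosen, so they are not independent support for the amygdala pattern. *Pnmt* was lower there, with totals over 4 libraries of 11 reads in WT (exact Poisson 95% interval 5.49 to 19.7), 12 in *Kmt2a*-HET (6.20 to 21.0), 43 in *Kdm5c*-KO (31.1 to 57.9) and 46 in DM (33.7 to 61.4). These intervals cover counting error only. The WT libraries held 1.17, 5.98, 2.22 and 1.75 normalised counts and those of *Kmt2a*-HET 7.91, 1.16, 0.964 and 3.82. The *Kdm5c*-KO libraries held 17.96, 8.44, 10.2 and 7.80, all above WT. The DM libraries held 19.3, 0.958, 9.93 and 13.0, with 1 library below every WT library and 3 above. The log2 difference from WT was 1.98 ± 0.83 in *Kdm5c*-KO (95% interval 0.35 to 3.61, unadjusted p = 0.017, adjusted p = 0.43). In DM it was 1.95 ± 0.83 (0.32 to 3.57, unadjusted p = 0.019, adjusted p = 0.48), and DM exceeded *Kmt2a*-HET by 1.65 ± 0.82 (adjusted p = 0.96). No difference passed the threshold at this depth, and the hippocampal intervals reach from small to many-fold. Over the leave-one-out fits the difference in DM ran from 1.501 to 2.65. Without the libraries numbered 1 it was 1.26 in DM and 1.42 in *Kdm5c*-KO. DM less *Kdm5c*-KO was -0.03 ± 0.74 (-1.48 to 1.41).

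Of the markers of known sources of *Pnmt* RNA, *Phox2a*, a transcription factor of noradrenaline, adrenaline and chromaffin cells, averaged at most 1.22 normalised counts in any group, and *Hand2*, also of the chromaffin list, was at 0 in all amygdala libraries. Of the 5 chromaffin markers only *Insm1* was present in number in the amygdala, where the summed list ran from 212 to 314 in WT, 241 to 264 in *Kmt2a*-HET, 269 to 328 in *Kdm5c*-KO and 253 to 359 in DM. Of the 6 markers of noradrenaline and adrenaline neurons, *Hmx2*, *Hmx3* and *Tfap2b*, which other neurons also express, were the 3 present in the amygdala. Their summed list ran from 7.59 to 83.1 in WT, 82.5 to 103 in *Kmt2a*-HET, 59.5 to 113 in *Kdm5c*-KO and 24.98 to 74.1 in DM. *Hmx2*, at a mean of 15.3 counts in the amygdala (0 to 39.6), was called higher in *Kdm5c*-KO than in WT there (2.74 ± 0.65, adjusted p = 0.0069). Its departure from additivity, the DM difference from WT less the sum of the single-mutant differences, was called at -4.25 ± 0.88 (adjusted p = 0.043). It was the 1 gene called for that departure, and edgeR and ERCC spike-in size factors each called 0. Leaving out WT replicate 3 or 4, any *Kmt2a*-HET replicate, *Kdm5c*-KO replicate 1 or 3, or DM replicate 1 also left 0 called. The part of these cells in the *Pnmt* values was not tested. In the DM amygdala libraries the summed choroid plexus list was 40727, 1114, 7557 and 777, in the order of the *Pnmt* values above (105, 105, 85.5 and 71.5). In *Kdm5c*-KO it was 1605, 961, 800 and 827, highest in the library with the most *Pnmt* of that group (92.4), and in WT and *Kmt2a*-HET it ran from 824 to 1177. Of its 6 genes *Aqp1*, *Kl*, *Ttr* and *Kcnj13* were called higher in DM than in WT amygdala. The hippocampal sums were 104171, 1347, 13245 and 26171 in *Kdm5c*-KO, where *Pnmt* was 17.96, 8.44, 10.2 and 7.80. They were 1116, 27320, 1130 and 27503 in DM, and in WT the highest (25526) was in replicate 3, with 2.22 counts of *Pnmt*. The part of choroid plexus in these values was not tested.

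Of 78 tests on the members across the 12 genotype comparisons, with *Pnmt* tested in the hippocampus only, 0 were called by DESeq2 and 0 of 78 by edgeR's quasi-likelihood test. The unadjusted DESeq2 p was under 0.05 in 13, of which 3 were tests of *Pnmt*, the gene picked for its counts in these mice. Over all genes with an adjusted p the share was 4.35% (1.91% to 8.17% by comparison), and since the members' tests share libraries the counts are a description. In the amygdala 0.00988% of all genes were called for *Kmt2a*-HET against WT, 0.756% for *Kdm5c*-KO, 0.99% for DM, 0.00329% for DM against *Kdm5c*-KO, 0.805% for DM against *Kmt2a*-HET and 0.00329% for the departure from additivity. In the hippocampus the same comparisons called 0%, 1.01%, 0.881%, 0.0067%, 0.606% and 0%. Beside the 0 calls for *Kmt2a*-HET and for the departure in the hippocampus, 715 and 571 genes had an unadjusted p under 0.05, and edgeR also called 0 in each. A count of 0 among 6 or 7 members is close to these backgrounds.

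**Figure D2:**
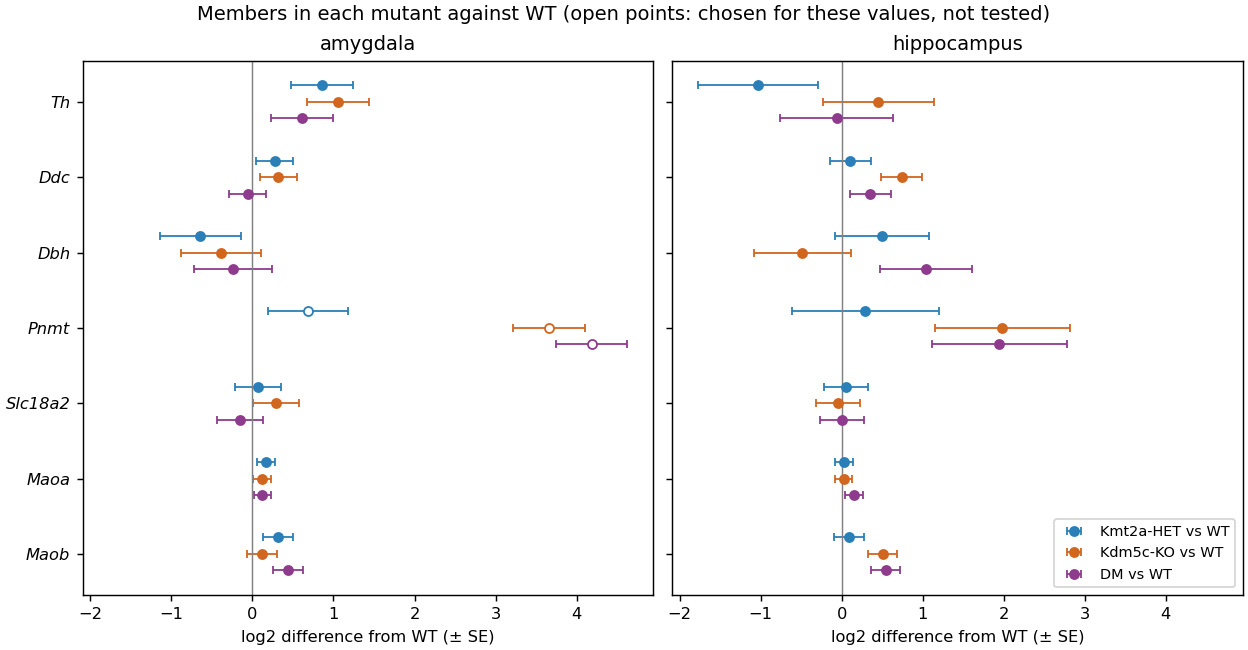
Log2 difference from WT (x axis, point ± SE) of each member in each mutant, in the amygdala (left) and hippocampus (right). *Pnmt* in *Kdm5c*-KO and DM lies farthest from 0 in both panels, and its open amygdala points were not tested because they chose the gene. No filled point passed the threshold.

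*Th*, the enzyme of the rate-limiting step, was the most uneven member within an amygdala group, by SD against mean. The WT amygdala libraries held 34.2, 274, 150 and 109 normalised counts, and 1 group thus held both the lowest library of the region and one above most of the others. The *Kmt2a*-HET libraries held 245, 226, 250 and 299, and those of *Kdm5c*-KO 345, 286, 347 and 198. In DM they were 177, 163, 186 and 333. Both single mutants overlapped WT only through WT replicate 2. The log2 difference from WT was 1.06 ± 0.38 in *Kdm5c*-KO (adjusted p = 0.36), 0.85 ± 0.38 in *Kmt2a*-HET (adjusted p = 1.0) and 0.61 ± 0.38 in DM (adjusted p = 0.88). The departure from additivity was -1.30 ± 0.54 (unadjusted p = 0.016, adjusted p = 1.0), as the DM mean of 215 ± 79.1 lay between WT (142 ± 100) and the single mutants (255 ± 30.9 and 294 ± 69.9). WT replicate 2 decided these calls. Without it *Th* was called higher in *Kmt2a*-HET (1.39, adjusted p = 0.038) and *Kdm5c*-KO (1.60, adjusted p = 0.0017), and the departure was called at -1.84 (adjusted p = 0.049). WT replicate 1, the lowest in *Th*, was also the lowest amygdala library in the summed noradrenaline list (7.59), and held 10231 in the striatal list. In the hippocampus *Th* ran from 0.964 to 33.7 over the 16 libraries and all genotypes overlapped.

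*Ddc*, which also decarboxylates 5-hydroxytryptophan to serotonin, was steadier. In the amygdala the WT libraries held 146, 432, 369 and 370 and those of *Kmt2a*-HET 405, 430, 380 and 374. Those of *Kdm5c*-KO held 353, 379, 531 and 378, while the DM libraries held 305, 281, 336 and 337. WT replicate 1 was again the lowest of the region, and the DM libraries were all below those of *Kmt2a*-HET and *Kdm5c*-KO. No amygdala difference was called (DM against *Kmt2a*-HET -0.33 ± 0.23, adjusted p = 0.98). In the fit of the DM and *Kmt2a*-HET libraries alone that difference was called. In the hippocampus the WT libraries held 60.8, 88.7, 117 and 101 and the *Kdm5c*-KO libraries 199, 128, 146 and 143, with no overlap. Those of *Kmt2a*-HET ran from 59.9 to 119.5, also below every *Kdm5c*-KO library. The highest value, 199, was in *Kdm5c*-KO replicate 1, the hippocampal library with the highest striatal (13181) and choroid plexus (104171) sums and the most *Th* (33.7) and *Maob* (726). The log2 difference was 0.74 ± 0.25 (95% interval 0.25 to 1.23, unadjusted p = 0.0033), which missed the threshold (adjusted p = 0.20), and was 0.59 without *Kdm5c*-KO replicate 1 (adjusted p = 0.72). DM was between them at 117 ± 30.9, with a difference from WT of 0.35 ± 0.25 (adjusted p = 0.83). An antisense gene, 1700042O10Rik, overlaps *Ddc*, and whether strand was used in counting is not given in the sources used here, so its reads cannot be told apart from those of *Ddc*.

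*Dbh*, whose product makes noradrenaline, was at the depth limit in both regions. In the amygdala WT libraries ran from 11.1 to 19.9, and the means were 9.04 ± 4.66 for *Kmt2a*-HET, 10.6 ± 4.29 for *Kdm5c*-KO and 11.9 ± 5.60 for DM, all overlapping. In the hippocampus the DM libraries held 34.3, 25.9, 27.1 and 42.1, above all 4 WT libraries (21.1, 4.98, 22.2 and 14.8). Those of *Kmt2a*-HET were 26.0, 20.9, 7.71 and 34.4, and those of *Kdm5c*-KO 2.25, 26.2, 6.13 and 9.75. DM exceeded *Kdm5c*-KO by 1.53 ± 0.58 on the log2 scale (unadjusted p = 0.0087, adjusted p = 0.93) and WT by 1.04 ± 0.57 (adjusted p = 0.69). The first was called only without *Kdm5c*-KO replicate 2 (2.39, adjusted p = 0.031), the 1 library of that group that reached the DM range.

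*Slc18a2*, the vesicular transporter, showed no difference between genotypes beyond its spread. Its amygdala means were 130 ± 51.7 for WT, 136 ± 16.1 for *Kmt2a*-HET, 158.5 ± 61.0 for *Kdm5c*-KO and 116 ± 20.9 for DM. In the hippocampus the means lay between 76.4 and 82.1, and the DM difference from WT was 0.00 ± 0.27 (95% interval -0.53 to 0.53). The antisense gene Gm29261 overlaps its first bases.

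*Maoa* and *Maob*, neighbours on the X chromosome that point towards each other, had the highest counts of the members, not corrected for length. *Maoa*, which prefers serotonin and noradrenaline, had amygdala means of 704 ± 79.9 for WT, 790 ± 74.5 for *Kmt2a*-HET, 762 ± 64.4 for *Kdm5c*-KO and 763 ± 69.0 for DM. Its log2 differences from WT lay between 0.02 and 0.17 over both regions. Its intervals were the narrowest of the members: in *Kdm5c*-KO hippocampus the difference was 0.02 ± 0.11 (-0.19 to 0.24).

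*Maob*, found in astrocytes and in serotonin and histamine neurons, was higher in both *Kdm5c*-mutant groups of the hippocampus without passing the threshold. The WT libraries held 364, 338, 384 and 330 and those of *Kmt2a*-HET 435, 380, 335 and 355. The DM libraries held 441, 558, 490 and 582, all above WT and *Kmt2a*-HET. Those of *Kdm5c*-KO held 726, 375, 402 and 511, of which replicate 2 lay inside the WT range and replicate 1 (726) was the library with the high striatal and choroid plexus sums. The log2 difference from WT was 0.55 ± 0.18 in DM (95% interval 0.20 to 0.90, unadjusted p = 0.0022, adjusted p = 0.17) and 0.51 ± 0.18 in *Kdm5c*-KO (unadjusted p = 0.0046, adjusted p = 0.23). DM against *Kmt2a*-HET was 0.46 ± 0.18 (adjusted p = 0.58). The DM difference was called in the fit of the DM and WT libraries alone (adjusted p = 0.0038), without *Kdm5c*-KO replicate 1 (0.0080) or 2 (0.088), and without the 4 libraries numbered 1 (0.63, adjusted p = 0.0044), and was 0.07 with ERCC spike-in size factors, which shifted the median of all genes in that comparison by -0.47. *Kdm5c*-KO against WT was 0.28 (adjusted p = 0.89) without *Kdm5c*-KO replicate 1 and 0.29 (adjusted p = 0.68) without the libraries numbered 1, and was called without *Kdm5c*-KO replicate 2 (0.63, adjusted p = 0.042). In the amygdala the DM difference was 0.44 ± 0.19 (adjusted p = 0.53).

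The summed list of 6 astrocyte markers in the hippocampus ran from 27014 to 31899 in WT, 28821 to 34101 in *Kmt2a*-HET, 29274 to 36107 in *Kdm5c*-KO and 34924 to 40676 in DM. Of its members *Gfap*, an intermediate filament of astrocytes, was called, higher in DM than in WT by 0.68 ± 0.16 (adjusted p = 0.0063), and the other 5 were not. None of the 6 was called in *Kdm5c*-KO, whose sums overlapped those of WT. Their part in the *Maob* values was not tested.

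**Figure D3:**
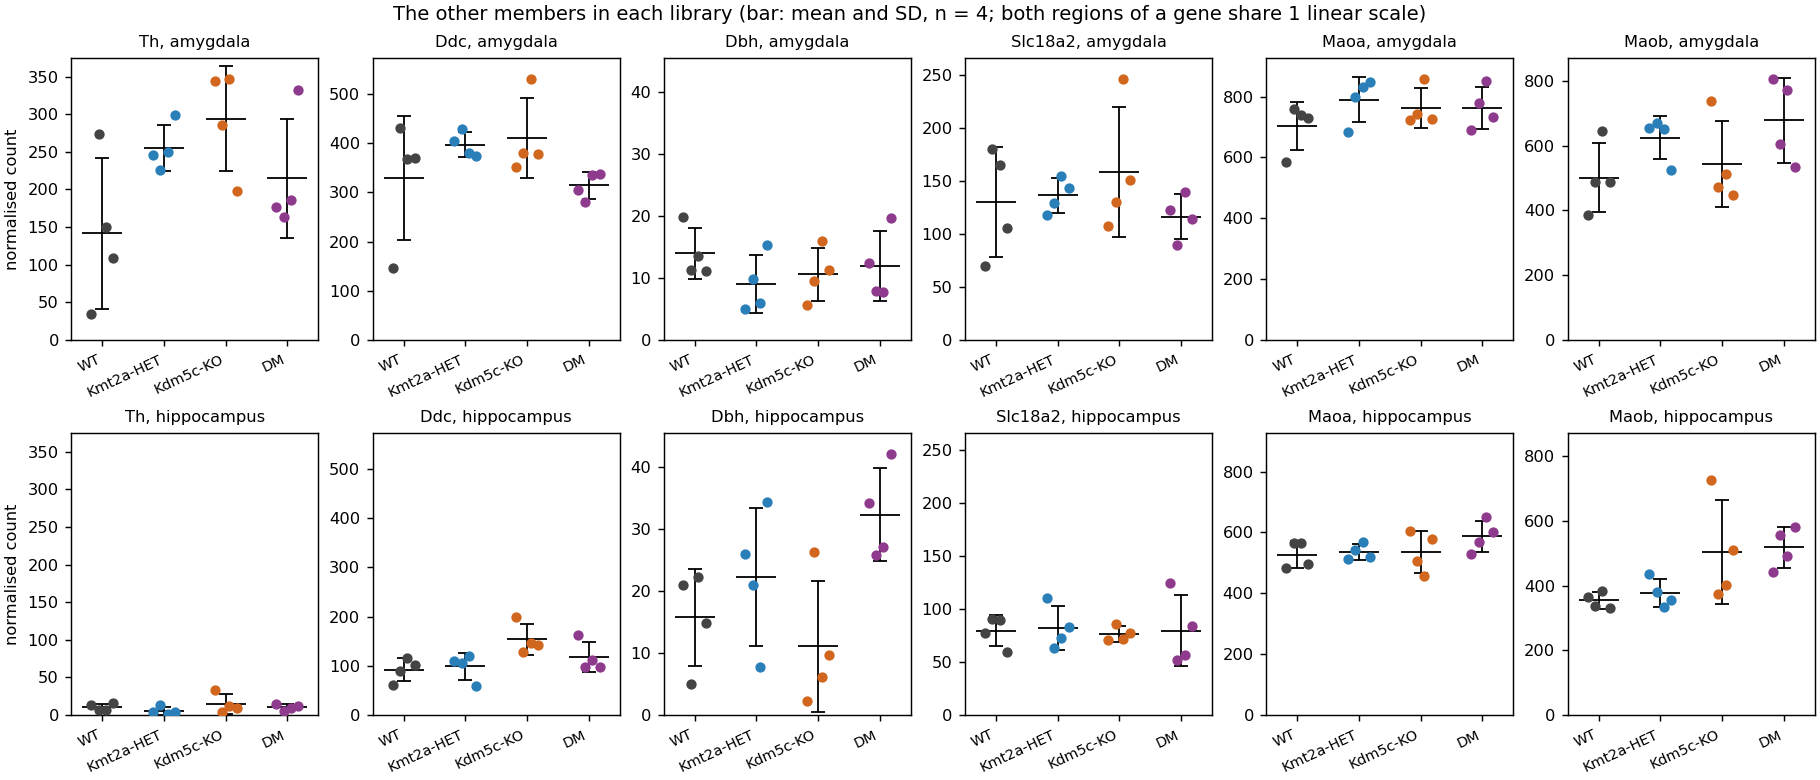
Normalised counts of the other 6 members in each library (points) with the mean and SD of each genotype (bars, n = 4), amygdala above and hippocampus below, on 1 linear axis per gene. *Th* and *Ddc* fall from the upper to the lower row in every genotype, and in the lower row *Maob* does not overlap between DM and WT (441 to 582 against 330 to 384).

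The regions came from the same animals, and the shares of all genes called between them were far higher: 21.2% for WT, 29.6% for *Kmt2a*-HET, 24% for *Kdm5c*-KO and 27.1% for DM. Of the 6 members tested, all 6 were called in *Kmt2a*-HET, 5 in WT, 4 in DM and 4 in *Kdm5c*-KO. This fit did not pair the regions of a mouse. *Th* fell from a median of 236 normalised counts in the amygdala (34.2 to 347, n = 16) to 9.35 in the hippocampus (0.964 to 33.7). The ranges did not overlap, though the lowest amygdala library, WT replicate 1, lay just above the highest hippocampal one, *Kdm5c*-KO replicate 1. The log2 difference, hippocampus minus amygdala, was -3.74 ± 0.51 for WT (adjusted p = 1.8e-11), -5.63 ± 0.57 for *Kmt2a*-HET (5.7e-21), -4.35 ± 0.49 for *Kdm5c*-KO (2.0e-16) and -4.40 ± 0.51 for DM (3.7e-16). *Th* was lower in the hippocampus of 16 of 16 mice. *Ddc* had an amygdala median of 372 (146 to 531) and a hippocampal one of 111 (59.9 to 199), and was also lower in 16 of 16 mice. Its difference lay between -2.004 ± 0.25 in *Kmt2a*-HET (adjusted p = 3.7e-14) and -1.42 ± 0.24 in *Kdm5c*-KO (1.4e-07). Of the 7 dopamine neuron markers, *Nr4a2*, which cortical neurons also express, was abundant in both regions (lowest group mean 227), and *Slc6a3*, the dopamine transporter, reached at most 24.28 in any library. *Foxa2* was at most 0.291 in any group. *Slc6a3* was called lower in the hippocampus in WT, *Kmt2a*-HET and *Kdm5c*-KO, and *Nr4a2* higher in all 4 genotypes. Of the other dopamine markers *Lmx1b* was called lower in WT and *Pitx3* in DM. All 6 striatal markers were called lower in every genotype. The part of such cells in the *Th* and *Ddc* values was not tested.

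*Maoa* was lower in the hippocampus of 16 of 16 mice by a smaller step, from -0.56 ± 0.10 in *Kmt2a*-HET (adjusted p = 1.3e-06) to -0.38 ± 0.10 in DM (0.0018). *Slc18a2* and *Maob* were each lower there in 14 of 16 mice, and *Dbh* in 4 of 16. *Slc18a2* was called lower in *Kdm5c*-KO (-1.05 ± 0.28, adjusted p = 0.0018), *Kmt2a*-HET (-0.73 ± 0.28, 0.043) and WT (-0.71 ± 0.28, 0.063). In DM its difference of -0.55 ± 0.28 missed the threshold (adjusted p = 0.17) and was called with mouse as a replicate block (0.076). *Maob* was called lower in *Kmt2a*-HET (-0.73 ± 0.19, adjusted p = 6.7e-04) and WT (-0.50 ± 0.19, 0.041), but not in *Kdm5c*-KO (-0.11 ± 0.19, 0.79) or in DM (-0.39 ± 0.18, 0.12). In DM it was called with the mouse block (0.052), by edgeR (0.097), which called 5 members there, with the low-count filter and in the 8 DM libraries alone (0.042). *Dbh* went the other way, higher in the hippocampus in DM (1.45 ± 0.52, adjusted p = 0.027) and *Kmt2a*-HET (1.30 ± 0.54, 0.063), and at 0.16 ± 0.53 in WT and 0.07 ± 0.55 in *Kdm5c*-KO. Leaving out 1 mouse took the adjusted p of *Dbh* as high as 0.28 in *Kmt2a*-HET and 0.102 in DM. That of *Slc18a2* reached 0.21 in *Kmt2a*-HET and 0.28 in WT, and that of *Maob* 0.22 in WT. Each of these calls was thus lost in at least 1 such fit. The directions between regions hold relative to the median gene. The ERCC spike-in RNA made up 0.120% to 0.511% of amygdala and 0.0503% to 0.295% of hippocampal counts. With size factors from it, the median of all genes shifted up by 0.40 to 0.94 there. With these factors *Th* was still called in every genotype and *Ddc* in *Kmt2a*-HET, and no other member was called. *Maoa* and *Maob* then turned higher in the hippocampus in WT, *Kdm5c*-KO and DM without being called.

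**Figure D4:**
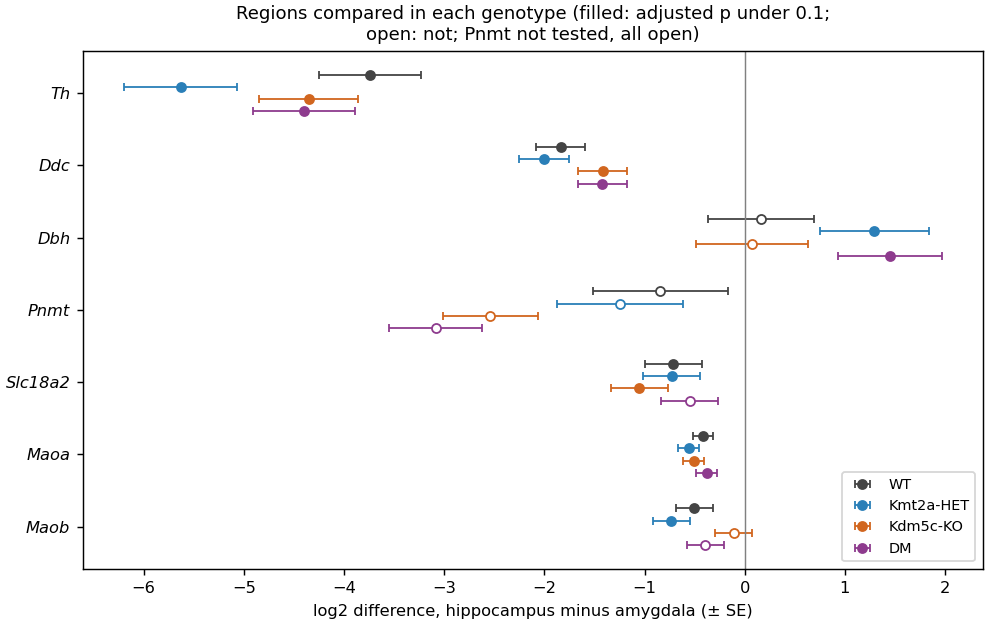
Log2 difference between regions (x axis, hippocampus minus amygdala, point ± SE) of each member in each genotype. Filled points were called at adjusted p under 0.1. *Th* lies between -5.63 and -3.74 and *Ddc* between -2.004 and -1.42, while *Dbh* is above 0 in all 4 genotypes.

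Whether a mutation acted differently in the 2 regions was tested as an interaction. No member was called in *Kmt2a*-HET, *Kdm5c*-KO or DM, against backgrounds of 0% (570 genes at an unadjusted p under 0.05, 0 called by edgeR), 0.0125% and 0.0125% of all genes. The unadjusted p was under 0.05 for *Th* in *Kmt2a*-HET (-1.89 ± 0.76, unadjusted p = 0.013, adjusted p = 1.0). For *Pnmt*, which was not tested here, the gap between regions was -0.84 ± 0.67 in WT and -3.08 ± 0.46 in DM.

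Levels of different genes can be compared only per length of exon. In WT amygdala *Maob* (180 ± 38.2 normalised counts per kb) and *Maoa* (169 ± 19.2) led over merged exons, with overlapping spreads, followed by *Ddc* (73.8 ± 28.1) and *Th* (59.9 ± 42.4), which did not differ beyond theirs. *Slc18a2* came next (24.9 ± 9.89), and *Dbh* (5.20 ± 1.53) and *Pnmt* (4.35 ± 1.27) were lowest and alike within their spread. In DM amygdala *Pnmt* reached 79.6 ± 14.2 per kb, beside 90.8 ± 33.5 for *Th* and 70.5 ± 6.09 for *Ddc*. *Dbh*, which makes the substrate of PNMT, was at 4.42 ± 2.08 there. For *Ddc* the merged exons (4461 bases) are far longer than its main transcript (1954 bases), so that its level per kb of that transcript was 168 in WT amygdala, near those of the oxidases. On the same footing *Ddc* was at 161 ± 13.9 in DM amygdala and *Th* at 117 ± 43.3, with *Pnmt* again at 79.6, so the place of *Pnmt* beside *Ddc* depends on the length used. Per kb of main transcript the mean of *Ddc* was above that of *Maoa* in *Kmt2a*-HET amygdala (203 ± 13.1 and 189.5 ± 17.9). The same held in *Kdm5c*-KO amygdala (209.9 ± 41.6 and 183 ± 15.5), both within their spread.

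**Figure D5:**
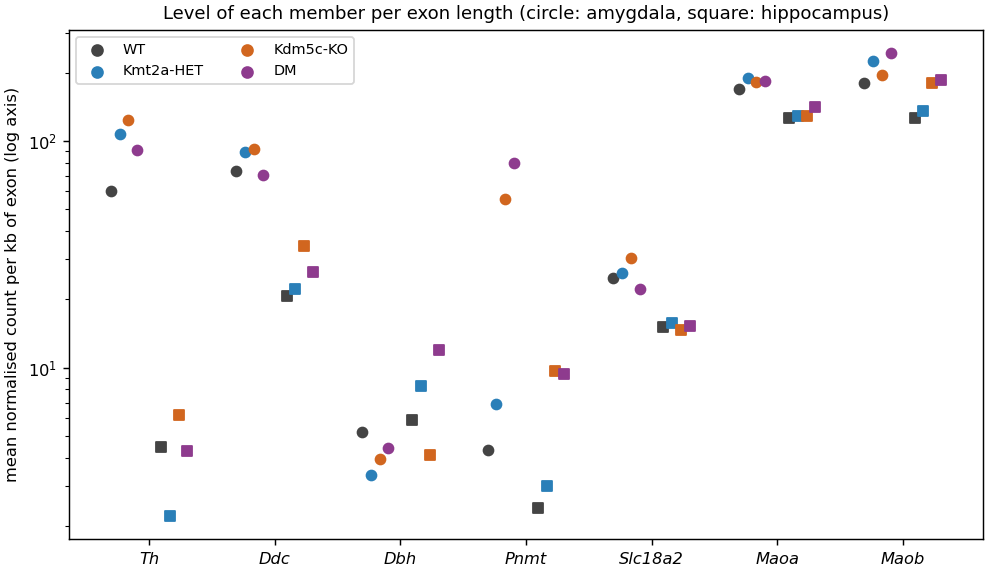
Mean normalised count per kb of merged exon (log axis) of each member by genotype (colour), in the amygdala (circles) and hippocampus (squares). In the amygdala *Pnmt* moves from the level of *Dbh* in WT (4.35 and 5.20) to 79.6 in DM, where *Ddc* is at 70.5 and *Th* at 90.8 (*Ddc* is at 161 per kb of its main transcript).

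One transcript carried nearly all of the reads assigned to *Dbh*, *Slc18a2*, *Maoa* and *Maob*, and to *Th* in the amygdala (at least 99.2%). At the few reads of the hippocampus the main *Th* transcript took 97.7% for *Kdm5c*-KO, 87.3% for WT, 69.5% for DM and 45.4% for *Kmt2a*-HET. For *Pnmt* it was the full-length transcript of 1154 bases with 100% in every group, and its shorter annotated transcript (245 bases) was at 0. The main *Ddc* transcript took 84.4% in WT amygdala and 93.0% in WT hippocampus, and a truncated one of 799 bases took 14.6% and 6.62%.

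Of the members that differed between regions, the promoter windows of 3 are printed here, *Th*, *Dbh* and *Slc18a2*. Those of *Ddc* and *Maoa*, which were called lower in the hippocampus in every genotype, are summarised below without their letters. No link between motifs and region was tested. RefSeq windows of 300 bases (250 before the start and 50 from it, build GRCm38.p6) were listed for *Th*, *Ddc*, *Dbh*, *Slc18a2* and *Maoa*, and not for *Pnmt* and *Maob*. Capitals mark matches, on either strand, to 7 motifs: the EGR1 cores GCGTGGG and GCGGGGG, the E-box CACGTG, the E2F core TTCCCGC, the glucocorticoid receptor core AGAACA, the cAMP response element core TGACG and the SP1 core GGGCGG. The windows are written 5′ to 3′ along the gene.
Th, chr7:142899946-142900245, minus strand: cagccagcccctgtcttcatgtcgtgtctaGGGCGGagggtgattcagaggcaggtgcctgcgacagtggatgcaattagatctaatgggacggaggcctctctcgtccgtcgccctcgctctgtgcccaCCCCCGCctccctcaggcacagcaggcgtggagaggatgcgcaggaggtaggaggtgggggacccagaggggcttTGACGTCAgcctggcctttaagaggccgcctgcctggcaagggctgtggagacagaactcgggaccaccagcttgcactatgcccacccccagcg
Dbh, chr2:27165257-27165556, plus strand: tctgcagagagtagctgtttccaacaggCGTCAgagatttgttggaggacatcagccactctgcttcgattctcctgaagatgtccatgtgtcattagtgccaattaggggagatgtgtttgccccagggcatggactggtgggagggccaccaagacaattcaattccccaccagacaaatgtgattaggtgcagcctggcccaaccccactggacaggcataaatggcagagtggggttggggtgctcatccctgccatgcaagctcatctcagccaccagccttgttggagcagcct
Slc18a2, chr19:59260628-59260927, plus strand: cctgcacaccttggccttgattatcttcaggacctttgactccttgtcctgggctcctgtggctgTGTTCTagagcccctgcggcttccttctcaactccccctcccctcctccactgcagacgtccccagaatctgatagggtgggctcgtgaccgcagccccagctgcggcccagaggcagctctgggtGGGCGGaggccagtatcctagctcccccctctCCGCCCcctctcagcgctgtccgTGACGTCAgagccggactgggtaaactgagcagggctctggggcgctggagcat

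The *Th* and *Slc18a2* windows each held TGACG on both strands in overlap, as the palindrome TGACGTCA, looked for after the windows were read. In *Th* it began at base -45 from the start and in *Slc18a2* at -4. Of 32544 windows 20.9% held TGACG on either strand and 1.80% the palindrome. *Dbh* held a single TGACG at -222 and *Maoa* 1 at -209. GGGCGG was in *Th*, *Slc18a2* and *Maoa* (35.9% of all windows), GCGGGGG in *Th* (10.9%) and AGAACA in *Slc18a2* (18.9%). No window of a member held GCGTGGG (5.08% of all), the E-box CACGTG (7.17%) or the E2F core TTCCCGC (4.63%). The looser E-box CANNTG was in the windows of *Th*, *Dbh*, *Slc18a2* and *Maoa* and in 72.3% of all. Both *Ddc* windows held none of the 8. A match is a run of letters and was not tested as a binding site.

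Of 45 genes in 8 lists (cofactor, breakdown, uptake, storage, methyl donor, related methyltransferases, other amines and regulators of *Pnmt*), 2 of 530 tests over the 12 genotype comparisons were called, both upwards, beside 0.336% of the tests on all genes. The 2 are near that background and are given as values. The 7 genes of tetrahydrobiopterin supply, the cofactor of TH, gave 1: *Pcbd1*, which recycles it, in *Kdm5c*-KO amygdala. Its values were 120, 243, 217 and 83.5 in WT and 363, 345, 352 and 310 in *Kdm5c*-KO, with no overlap, and the log2 difference was 1.05 ± 0.25 (adjusted p = 0.0094). In the hippocampus it was 0.98 ± 0.33 (adjusted p = 0.18). The call was lost in edgeR (adjusted p = 0.14), with ERCC factors, and without the libraries numbered 1 (0.89, adjusted p = 0.20). The list's median difference there was -0.02, against -0.01 over all genes tested.

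The 3 small-molecule methyltransferases related to PNMT gave the other call, *Inmt* in DM amygdala. Its libraries held 58.8, 26.5, 27.9 and 22.8 in DM and 10.4, 11.3, 6.29 and 13.9 in WT, a log2 difference of 1.70 ± 0.46 (adjusted p = 0.041). The highest value was in DM replicate 1, the library with the most choroid plexus RNA. Without that library the difference was 1.29 (adjusted p = 0.42), without WT replicate 3 it was 1.52 (adjusted p = 0.20), and edgeR gave an adjusted p of 0.16. The call was also lost with ERCC factors (adjusted p = 1.0) and without the libraries numbered 1 (1.29, adjusted p = 0.51). The list's median difference was 0.13 against -0.01 over all genes.

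None of the other 6 lists held a call between genotypes. They were later breakdown (8 genes), uptake (6), storage and vesicle cofactor supply (6), S-adenosylmethionine supply (4), serotonin and histamine synthesis (3) and regulators known from work on the *Pnmt* gene (8, with *Egr1*, *Nr3c1* and *Sp1*). In *Kdm5c*-KO amygdala the regulators had a median difference of 0.07 against -0.01 over all genes. Between regions 45 of 180 tests on the 45 genes were called lower in the hippocampus and 12 higher. Over all genes the calls were nearly even, from 2395 lower and 2104 higher in WT to 3224 and 3238 in *Kmt2a*-HET. *Pcbd1* was lower in all 4 genotypes (-1.96 ± 0.29 to -1.78 ± 0.30), as was *Slc22a3*, an extraneuronal amine transporter (-3.86 to -2.63). *Tph2*, of serotonin synthesis, was higher in the hippocampus in 3 genotypes, at 15.7 ± 5.90 counts against 5.86 ± 4.43 (n = 16). *Hdc*, of histamine synthesis, went the other way, at 36.5 ± 16.95 against 79.5 ± 38.7. Their list held 3 calls higher and 3 lower.

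Among the 4 protein-coding genes on each side (*Neurod2*, *Ppp1r1b*, *Stard3* and *Tcap* before it, *Pgap3*, *Erbb2*, *Mien1* and *Grb7* after it), 0 of 96 tests between genotypes were called by DESeq2, with 4 at an unadjusted p under 0.05. *Tcap* ends 1496 bases before *Pnmt* and differed from WT by 0.14 ± 0.45 in *Kdm5c*-KO and 0.38 ± 0.44 in DM amygdala. *Pgap3*, 495 bases beyond its other end and on the opposite strand, differed by -0.21 ± 0.17 and -0.19 ± 0.17.

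The 5 genes whose pattern was most like that of *Pnmt* were ranked by the lower of 2 Pearson correlations of log2(normalised count + 1) over the 16 libraries of each region, among 16013 genes with a mean of at least 10 in both. They were *Pgam2* (r = 0.90 in the amygdala and 0.72 in the hippocampus), *Hexim2* (0.78 and 0.72), 9330188P03Rik (0.84 and 0.71), BC065397 (0.96 and 0.71) and *Rnf17* (0.80 and 0.70). The libraries share genotype, mouse and preparation, so these are descriptions. The ranking depends on the measure: by Spearman's rho the first 5 were *Amh*, *Acta1*, *Rnf17*, *Jsrp1* and *Hexim2*, with BC065397 at rank 13, *Pgam2* at 15 and 9330188P03Rik at 43. With a minimum mean of 50, *Acta1*, *Jsrp1* and *Retsat* followed *Pgam2* and *Hexim2*. *Pgam2*, the muscle form of phosphoglycerate mutase, had amygdala means of 118 ± 61.0 for WT, 105 ± 15.3 for *Kmt2a*-HET, 420 ± 67.9 for *Kdm5c*-KO and 398 ± 65.2 for DM. Its hippocampal means were 182 ± 30.5, 204 ± 48.2, 671 ± 107 and 613 ± 155. *Rnf17*, known from the germ line, averaged 9.91 ± 4.09, 11.5 ± 2.27, 29.1 ± 11.5 and 31.7 ± 10.9 in the amygdala. Of the other members *Maob* ranked 1039 (0.27 and 0.52), *Maoa* 2568 (0.13 and 0.19) and *Ddc* 4953 (-0.01 and 0.56). *Slc18a2* ranked 6121 (-0.07 and 0.47) and *Dbh* 7884 (-0.15 and -0.11). *Th*, with a mean of 9.81 in the hippocampus, was under the minimum and not ranked.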

How the data were processed

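RNA was sequenced from the amygdala and hippocampus of 16 mice, with oligo-dT selection, a strand-marking kit and ERCC spike-in RNA. Per the labels, the authors aligned reads to mm10 with STAR 2.5.3a and counted them with featureCounts (Subread 1.5.0). The deposited tables hold expected counts per gene, of which 7.08% were not whole (0% for the 7 members). The estimator and the use of strand are not given in the sources used here. Expected counts were rounded to whole numbers.

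Gene symbols came from GENCODE M21. The 7 members and all gene lists were chosen with earlier results of these data known. Each region was fitted with DESeq2 1.42.0 (R 4.3.3, Wald test, 16 libraries, genotype as the factor, adjusted p under 0.1), and the regions with all 32 libraries in 8 groups of region and genotype. Both regions of a mouse share its number in the labels, and across all genes a mouse's deviations in the 2 regions correlated with a median r of 0.123 (0.00343 to 0.340, over 0.1 in 10 of 16 mice). Alternatives were edgeR 4.0.16, TMM and ERCC size factors, a filter of at least 10 counts in 4 libraries, an adjusted p under 0.05, fits of the compared groups alone, a replicate block, summed transcript counts, and leaving out each library. Leaving out all 4 libraries numbered 1 was added after seeing the data. On simulated counts with known changes DESeq2 called more unchanged genes than its threshold names, and edgeR was nearer to it. Each group held 4 mice. Named genes were the members, pathway genes called in a comparison (up to 3 per list), the neighbours of *Pnmt*, the 5 genes most like it and the targeted genes, and marker genes and some list members called between regions were named after their values were seen. Some genes of the lists are not reported by name here.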

Additional observations from a re-analysis of the deposited data

Results flagged for a closer look

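In 5 of the 56 groups of 4 libraries formed by the 7 members, 1 library stood apart from the other 3 by a gap that was large against the range of the group. Chance flags about 1 group in 20. All 5 were amygdala libraries. *Th* reached 332.5 normalised counts in DM replicate 4. *Ddc* and *Maoa* were highest in *Kdm5c*-KO replicate 3, at 530.7 and 857.8. That library also held the most *Slc18a2* (246.0), the least *Pnmt* of its group (31.1) and the lowest summed striatal markers of the region (6572), and the part of dissection in these values was not tested. *Maoa* was lowest in WT replicate 1, at 585.4, the library also lowest in *Th*, *Ddc* and *Maob*. Within *Kmt2a*-HET, *Maob* was lowest in replicate 4, at 526.1.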

How the results depend on the processing

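Over 449 alternatives (refits of the comparisons or an adjusted p under 0.05), the number of members called was within 1.5 times the reported one in 429. Where the reported number was 0, as in every genotype comparison and region difference, a match meant 0 again. Between genotypes the number moved from 0 to 1 as follows. In the fit of the compared groups alone, 1 member was called in DM against *Kmt2a*-HET amygdala (*Ddc*) and 1 in DM against WT hippocampus (*Maob*). Without the 4 libraries numbered 1, a choice made after seeing the data, 1 was called in DM against WT and 1 in DM against *Kmt2a*-HET hippocampus (*Maob* in both). Leaving out 1 library gave 0 to 1 for *Kmt2a*-HET and *Kdm5c*-KO against WT and the departure from additivity in the amygdala (*Th*, without WT replicate 2). It also gave 0 to 1 in the hippocampus for *Kdm5c*-KO against WT (*Maob* without *Kdm5c*-KO replicate 2, *Ddc* without *Kmt2a*-HET replicate 4, adjusted p = 0.098), DM against WT (*Maob*), DM against *Kdm5c*-KO (*Dbh*) and DM against *Kmt2a*-HET (*Maob*, without *Kdm5c*-KO replicate 1, adjusted p = 0.095). The cause was not tested.

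Between regions ERCC factors left 2 members called in *Kmt2a*-HET and 1 each in WT, *Kdm5c*-KO and DM. Leaving out 1 mouse gave 3 to 5 in WT, 4 to 6 in *Kmt2a*-HET, 4 to 4 in *Kdm5c*-KO and 3 to 5 in DM. With ERCC factors *Maoa* was 0.30 (WT), 0.46 (*Kdm5c*-KO) and 0.0708 (DM), and *Maob* 0.21, 0.80 and 0.0382. *Dbh* was not called in WT or *Kdm5c*-KO in these fits and ran from -0.0613 (without WT replicate 3) to 0.37 in WT when 1 mouse was left out, and in *Kdm5c*-KO from -0.86 (without replicate 2) to 0.54, with -0.18 under a block by mouse.

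Replicate numbers did not pair the genotypes as a whole, since deviations correlated over 0.1 in 0 to 3 of 4 numbers. The libraries numbered 1 were an exception in the amygdala, where each pair of genotypes correlated (r = 0.183 to 0.360). In the hippocampus their r ran from 0.00946 to 0.333. The replicate block called 0 members in all 12 genotype comparisons (*Pnmt* in *Kdm5c*-KO hippocampus 1.78, adjusted p = 0.67). In the order *Kmt2a*-HET, *Kdm5c*-KO and DM against WT, DM against *Kdm5c*-KO, DM against *Kmt2a*-HET and departure, the reported fits called 3, 144, 211, 1, 158 and 1 genes over all in the amygdala and then 0, 195, 170, 2, 117 and 0 in the hippocampus, edgeR 0, 69, 89, 0, 61 and 0 and then 0, 70, 63, 0, 54 and 0, ERCC factors 1, 23, 7, 0, 6 and 0 and then 1, 19, 6, 0, 3 and 0, and the block 326, 507, 601, 357, 547 and 92 and then 248, 506, 480, 402, 436 and 68. ERCC factors lowered the genes called between regions to 1616 (WT), 1377 (*Kmt2a*-HET) and 1148 (DM), and raised them from 5091 to 6670 in *Kdm5c*-KO. Beside 4 genes reported for the region difference of *Kdm5c*-KO against WT and 4 for that of DM, edgeR called 0 and 2, ERCC factors 0 and 1, and the block by mouse 4 and 15. In the groups compared alone 606 genes were called in DM against *Kmt2a*-HET amygdala, 323 in DM against WT hippocampus, 42 in DM against *Kdm5c*-KO hippocampus, 2 in *Kmt2a*-HET against WT hippocampus, 0 in DM against *Kdm5c*-KO amygdala, and 90 and 128 in *Kdm5c*-KO and DM against WT amygdala. Leaving out 1 library moved the genes called in the amygdala to between 0 and 82 in *Kmt2a*-HET against WT (82 without WT replicate 2), 95 (WT replicate 3) and 274 (WT replicate 2) in *Kdm5c*-KO, 110 (DM replicate 1) and 277 in DM, 0 and 31 (DM replicate 4) in DM against *Kdm5c*-KO, 90 (*Kmt2a*-HET replicate 2) and 271 (WT replicate 1) in DM against *Kmt2a*-HET, and 0 and 68 (WT replicate 2) in the departure. In the hippocampus the same counts ran from 0 to 2, 109 (WT replicate 2) to 290, 100 (WT replicate 4) to 261 (WT replicate 2), 1 to 126 (*Kdm5c*-KO replicate 2), 79 to 148, and 0 to 2. Counts of reads limit *Pnmt* and *Dbh* in both regions and *Th* in the hippocampus.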
